A study of Mus musculus with 16 samples.

Results

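Transcript levels of 9 genes for proteins that bind fatty acids or carry them across membranes were measured in primary mouse hepatocytes treated with either of 2 inhibitors of cholesterol synthesis. The genes are the fatty acid binding proteins Fabp1, Fabp2, Fabp4, Fabp5 and Fabp7, the surface receptor Cd36, and the fatty acid transport proteins Slc27a1, Slc27a2 and Slc27a4. They were found on the array through the RefSeq accession of their probes, with 1 probe each, and are 9 of 20659 named genes on the array and 9 of 15053 genes tested. The set was chosen by function and on these same treated-over-control ratios, in which Fabp1 moved in opposite directions with the drugs, so the members' ratios and calls against control are a description, with standard errors, and are not evidence of a response. The cells were hepatocytes of male C57Bl/J mice kept in Williams Medium E. Beginning 48 h after plating they were left untreated, or received SQ1 at 100 µM or pravastatin at 30 µM, for 48 h. SQ1, or squalestatin 1, blocks squalene synthase; the unit of its labelled dose is uncertain. Pravastatin is a statin, an inhibitor of HMG-CoA reductase, an earlier step of the same pathway. The doses of the drugs differ, and the labels give no number of mice. Each of 16 arrays measured RNA of 1 treated and 1 untreated culture in 2 dyes, with 8 arrays per drug. Treated RNA was in the Alexa 647 dye for replicates 1 to 4 and in Alexa 555 for replicates 5 to 8. The control cultures carry the same 8 numbers on the arrays of both drugs, so that the comparisons probably share their controls, and the responses are set side by side.

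Long-chain fatty acids enter hepatocytes partly by way of Cd36 and the Slc27a transport proteins, several of which also activate fatty acids to their CoA thioesters. Inside the cell, fatty acid binding proteins keep these poorly soluble molecules in solution and pass them to mitochondria, peroxisomes, the endoplasmic reticulum and the nucleus. Fabp1 is the abundant liver form. Fatty acids are ligands of the nuclear receptor PPARalpha, and Fabp1, Cd36 and several Slc27a genes are known targets of PPAR receptors in liver.

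The sequence just before the start of transcription is shown for the 4 members with the lowest ratios under pravastatin, because these promoters belong to the genes whose levels moved most. They are the 250 bases before the start of the RefSeq promoter entries (GRCm38.p6), which held 7 of the 9 members in 9 windows, written 5′ to 3′ on the strand of the gene. PPARalpha with its partner RXR, and also HNF4alpha, bind direct repeats of the 6-base motif AGGTCA with 1 base between them. Capitals mark every match to AGGTCA on either strand, which reads TGACCT on the strand shown where the match lies on the opposite strand. They also mark every match to the direct repeat with any base at the fourth place of each motif, AGGNCANAGGNCA.
Fabp1 (chr6:71199629-71199878, plus strand): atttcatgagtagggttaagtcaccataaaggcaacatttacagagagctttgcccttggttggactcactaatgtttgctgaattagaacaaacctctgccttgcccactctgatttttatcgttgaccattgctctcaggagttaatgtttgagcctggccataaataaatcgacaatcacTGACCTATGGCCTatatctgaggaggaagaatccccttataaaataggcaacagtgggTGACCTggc
Slc27a2 (chr2:126552774-126553023, plus strand): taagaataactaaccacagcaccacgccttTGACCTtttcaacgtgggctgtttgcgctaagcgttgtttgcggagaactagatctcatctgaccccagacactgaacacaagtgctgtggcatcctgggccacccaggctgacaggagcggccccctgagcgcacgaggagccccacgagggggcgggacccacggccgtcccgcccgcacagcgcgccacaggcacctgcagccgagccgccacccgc
Fabp2 (chr3:122894822-122895071, plus strand): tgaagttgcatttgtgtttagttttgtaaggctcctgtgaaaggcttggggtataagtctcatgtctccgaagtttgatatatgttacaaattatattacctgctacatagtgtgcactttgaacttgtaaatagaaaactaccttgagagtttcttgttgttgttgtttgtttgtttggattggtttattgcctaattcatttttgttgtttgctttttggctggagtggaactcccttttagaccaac
Cd36 (chr5:17835897-17836146, minus strand): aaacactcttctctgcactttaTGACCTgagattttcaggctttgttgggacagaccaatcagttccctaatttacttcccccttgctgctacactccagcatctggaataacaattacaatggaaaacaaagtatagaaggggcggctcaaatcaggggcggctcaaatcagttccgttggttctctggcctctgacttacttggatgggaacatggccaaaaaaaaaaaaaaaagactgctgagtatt
The Fabp1 window held 1 match to the relaxed direct repeat, tgacctatggcct, from 67 to 55 bases before the start, and a further AGGTCA from 9 to 4 bases before it, both on the opposite strand. The first AGGTCA of that window lies within the repeat. Among all 32851 promoter windows of this length, 0.338% held the relaxed repeat, 0.0335% the exact repeat AGGTCANAGGTCA, and 14% at least 1 AGGTCA. The Slc27a2, Cd36 and Fabp7 windows each held 1 AGGTCA and no repeat. The windows of Fabp2 and Slc27a4, and the 3 windows of Slc27a1, held none of these motifs. A match describes these letters, and binding was not tested.

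All 9 probes were well above background in every treated and control channel, and none was saturated. Levels below are normalized log2 intensities, which can be compared between samples for 1 gene but not between genes. Calls were made at an adjusted p of 0.05 (limma with Benjamini-Hochberg adjustment over all genes tested). With SQ1, 15.8% of genes tested were called higher and 16.5% lower. With pravastatin, the shares were 30.9% and 35.8%. The gene lists below were chosen with earlier results of these data known, so their counts are a description, to be read beside these shares. The balance of the calls depended on the normalization: 48.8% of SQ1 calls and 46.3% of pravastatin calls were higher, against 71.2% and 61.0% with median centring in place of loess, and 54.1% and 56.8% on Agilent's processed signals. Of the 9 members, 4 were called higher and 2 lower with SQ1, and 1 higher and 7 lower with pravastatin. The members were chosen with these ratios known, and nothing is read from their counts. In these bulk samples, fewer cells of a type and less RNA per cell cannot be told apart. Hepatocyte markers moved as well: their summed level was 19.77 to 20.44 in SQ1 cultures against 20.04 to 20.72 in the controls, and 18.72 to 19.86 in pravastatin cultures against 20.47 to 20.76 in the controls of those arrays. Of the 12 hepatocyte markers, 6 fell with SQ1 and all 12 with pravastatin. Their part in the members' ratios was not tested.

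**Figure D1:**
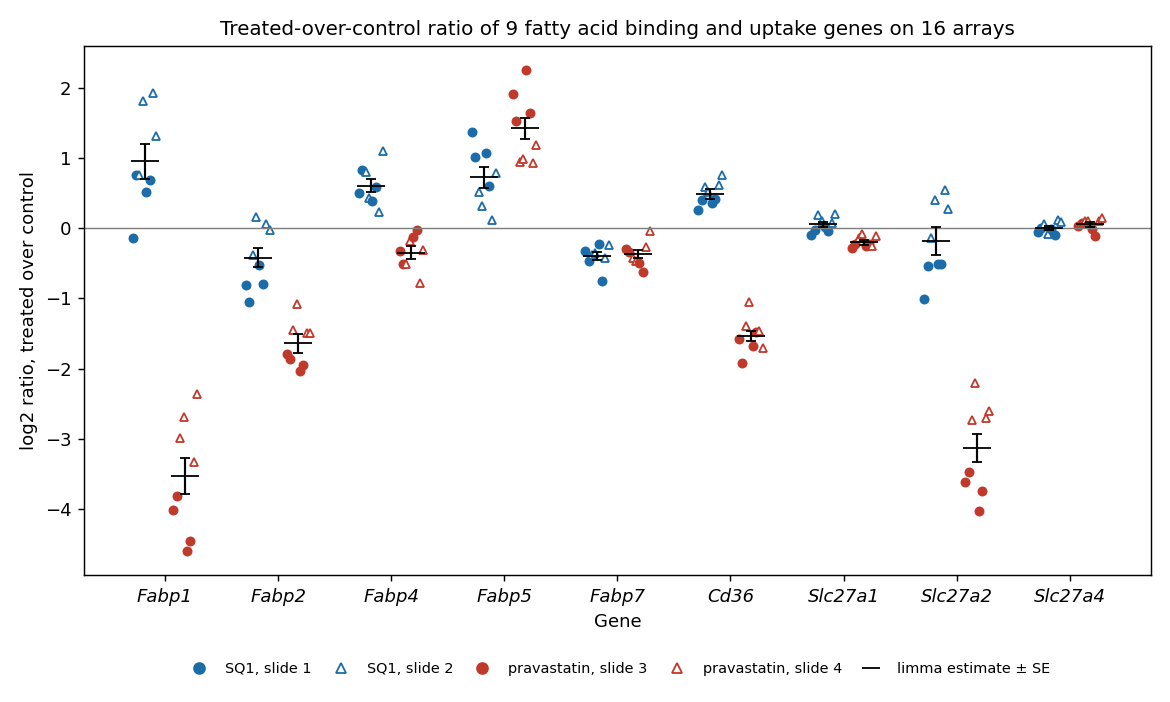
Log2 ratio of treated over control for each of the 9 genes on the 8 arrays of each drug, with the dye effect removed; circles are arrays of the first slide of a drug, triangles those of the second, and black bars the limma estimate ± standard error. Fabp1 and Slc27a2 lie lowest with pravastatin, Fabp5 lies above 0 with both drugs, and Slc27a4 stays near 0.

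Fabp1, the major cytosolic fatty acid carrier of hepatocytes, rose with SQ1 and fell with pravastatin. On the SQ1 arrays the control level ran from 12.40 to 14.40 (median 13.87) and the treated level from 13.94 to 15.49 (median 14.67), so that the ranges overlapped. The ratio was above 0 on 7 of 8 arrays and below it on replicate 1, where the treated level was 13.94 against 14.40 in its control. The fitted log2 ratio was 0.95 ± 0.25 (SE, 8 arrays), or 1.94-fold higher. The rise was not called within slide 1 alone, where the ratio was 0.46, nor with scan day as a random block, where it was 0.58 (slide 3 was scanned on another day than the other slides). On the pravastatin arrays the treated level ran from 9.88 to 10.47 (median 10.28), below every control, which ran from 12.43 to 14.54 (median 13.88). The log2 ratio was -3.53 ± 0.25, or 11.5-fold lower, and only 19 of the 15053 genes had a lower ratio.

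Fabp2, the intestinal form, was measured well above background in these hepatocytes and fell with each drug. Its control level ran from 10.97 to 11.63 (median 11.37) on the SQ1 arrays and its SQ1 level from 10.37 to 11.39 (median 10.96). These ranges overlapped, and the ratio was below 0 on 6 of 8 arrays. The log2 ratio with SQ1 was -0.42 ± 0.13. This call is the least firm of the set: it was lost without SQ1 replicate 1, 2 or 6 (log2 ratios of -0.36, -0.32 and -0.36), within slide 2 (-0.04), with median centring of the arrays (-0.30), and with slide or scan day as a random block. With pravastatin, Fabp2 ran from 9.55 to 9.75 (median 9.64), below every control at 10.87 to 11.68 (median 11.38). This gave a log2 ratio of -1.64 ± 0.13, or 3.12-fold lower.

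Fabp4, the form known from adipocytes, macrophages and endothelial cells, rose with SQ1 and fell with pravastatin by a smaller amount. The SQ1 level ran from 13.48 to 14.47 (median 14.16) and its controls from 13.11 to 14.07 (median 13.40). The ranges overlapped, while the ratio was above 0 on all 8 arrays, at 0.61 ± 0.09 or 1.52-fold higher. With pravastatin the treated level was 13.01 to 13.72 (median 13.30) against 13.26 to 14.20 (median 13.61) in the controls, also overlapping. The ratio was below 0 on all 8 arrays, at -0.35 ± 0.09, or 1.27-fold lower. It was not called within slide 3, where the ratio was -0.25, nor with median centring of the arrays in place of loess (-0.20).

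Markers of cells that are known to carry Fabp4 were read beside it. Of 13 Kupffer cell and leukocyte markers tested, 1 rose and 6 fell with SQ1, and none rose and 10 fell with pravastatin, with 1 rise without pravastatin replicate 3 or 8. Their summed level was 13.72 to 14.66 in SQ1 cultures (controls 13.91 to 14.82) and 13.40 to 14.47 in pravastatin cultures (controls 13.89 to 14.84). Of 11 endothelial markers tested, 5 rose and none fell with SQ1, and 4 rose and 4 fell with pravastatin, the 4 rises becoming 2 without pravastatin replicate 1 or 5. The summed endothelial level was 13.804 to 14.087 in SQ1 cultures (controls 13.575 to 14.032) and 13.364 to 13.925 in pravastatin cultures (controls 13.584 to 14.045). The adipocyte markers Adipoq and Lep were well above background in 0 of 16 control channels, and Plin1, Cfd and Retn in 1 of 16 each. The other 3 genes of that list, Adrb3, Cidea and Pck1, were well above background in 16 of 16. The part of other cell types in the Fabp4 ratio was not tested.

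Fabp5, the form first described in epidermis, was the single member that rose with each drug. With SQ1 its level was 13.66 to 14.23 (median 14.02) against 12.60 to 13.90 (median 13.43) in the controls, so that the ranges overlapped. Its log2 ratio was 0.72 ± 0.15, or 1.65-fold higher, and above 0 on all 8 arrays. With pravastatin the level was 14.54 to 15.31 (median 14.90), above every control at 12.93 to 14.21 (median 13.63). The log2 ratio was 1.42 ± 0.15, or 2.68-fold higher, and 36 of the 15053 genes had a higher ratio.

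Fabp7, the form of brain and glia, fell by a similar amount with each drug. With SQ1 the level was 9.50 to 10.26 (median 9.83) against 9.61 to 10.81 (median 10.27) in the controls. With pravastatin it was 9.81 to 10.19 (median 10.02) against 9.89 to 10.70 (median 10.41). The ranges overlapped in both cases. The log2 ratio was -0.39 ± 0.06 with SQ1, below 0 on all 8 arrays, and -0.37 ± 0.06 with pravastatin, below 0 on 7 of 8. The SQ1 ratio was -0.29 and not called with median centring.

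Cd36, a scavenger receptor that takes up long-chain fatty acids and modified lipoproteins, followed the pattern of Fabp1 with less scatter. The SQ1 level was 14.25 to 14.89 (median 14.59) against 13.60 to 14.42 (median 14.16) in the controls, with overlap. The ratio was above 0 on all 8 arrays, at 0.49 ± 0.07 or 1.40-fold higher. The pravastatin level was 11.95 to 12.94 (median 12.65), below every control at 13.57 to 14.57 (median 14.21). The log2 ratio was -1.53 ± 0.07, or 2.90-fold lower. Both calls held under every alternative that was run, leaving out each array included.

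The Slc27a transport proteins differed in response. Slc27a2, the very long-chain acyl-CoA synthetase and transporter of liver, fell 8.78-fold with pravastatin. Its pravastatin level was 12.64 to 13.08 (median 12.84) against 15.02 to 16.68 (median 16.15) in the controls, without overlap, and the log2 ratio was -3.13 ± 0.20. With SQ1 its level was 15.35 to 15.98 (median 15.60) against 14.95 to 16.60 (median 16.02), and the ratio of -0.19 ± 0.20 was not past the threshold, though within slide 1 alone it was called lower, at -0.64. Slc27a1, the transporter best known from muscle and fat, had a pravastatin level of 8.00 to 8.13 (median 8.04), below every control at 8.16 to 8.34 (median 8.26). This fall was small, at -0.20 ± 0.03 or 1.15-fold. With SQ1, Slc27a1 had a ratio of 0.05 ± 0.03, which was not past the threshold, while within slide 2 alone it was called higher, at 0.14. Slc27a4, a widely expressed member and the main form of intestine, did not pass the threshold with SQ1 (0.00 ± 0.03, 95% interval -0.07 to 0.07) or with pravastatin (0.05 ± 0.03, 95% interval -0.01 to 0.12). Its pravastatin level of 8.39 to 8.69 overlapped its controls at 8.33 to 8.63. Slc27a4 was called higher with pravastatin on Agilent's processed signals (0.15), within slide 4 (0.11) and without pravastatin replicate 6 (0.08).

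The difference between the responses, SQ1 minus pravastatin, was taken from the same limma fit. Over all genes tested, 29.3% were called with a higher and 23.9% with a lower ratio under SQ1. Of the members, 6 were called with a higher ratio under SQ1 and 1, Fabp5, with a lower ratio; these counts rest on the ratios that chose the set. Fabp1 had the second highest difference of all genes tested, at 4.48 ± 0.35. The difference was 2.95 ± 0.28 for Slc27a2, 2.02 ± 0.10 for Cd36, 1.22 ± 0.18 for Fabp2, 0.95 ± 0.13 for Fabp4 and 0.25 ± 0.05 for Slc27a1. Fabp5 had a difference of -0.70 ± 0.21, which was not called with scan day as a random block (-0.48). For Fabp7 the difference was -0.02 with a 95% interval of -0.20 to 0.15, and for Slc27a4 it was -0.05 with an interval of -0.15 to 0.04.

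The response of several members differed between the slides of a drug, a comparison that the choice of the set did not use. Each slide carried 4 arrays. Replicates 1, 2, 5 and 6 of SQ1 lay on slide 1 and the other four on slide 2; the same replicates of pravastatin lay on slides 3 and 4, so that slide and set of cultures cannot be told apart. Across all genes tested the response differed between slides for 12.3% with SQ1 and 21.8% with pravastatin. Of the 9 members, 5 differed with SQ1 and 4 with pravastatin. Fabp1 had a ratio of 0.46 on slide 1 and 1.45 on slide 2 (adjusted p = 0.0294, limma), and of -4.21 on slide 3 and -2.84 on slide 4 (adjusted p = 0.00258). Its rise with SQ1 was thus smaller, and its fall with pravastatin larger, on the slides with replicates 1, 2, 5 and 6. Slc27a2 had a ratio of -0.64 on slide 1 and 0.27 on slide 2 (adjusted p = 0.00349, limma), and of -3.71 and -2.56 on slides 3 and 4 (adjusted p = 0.000284). Fabp2 had ratios of -0.80 and -0.04 with SQ1 (adjusted p = 0.00234, limma) and of -1.90 and -1.38 with pravastatin (adjusted p = 0.00819). Fabp5 ran the other way, with a larger rise on the first slide of each drug: 1.01 against 0.43 with SQ1 (adjusted p = 0.0425, limma) and 1.83 against 1.01 with pravastatin (adjusted p = 0.0038). Slc27a1 differed with SQ1, at -0.04 against 0.14 (adjusted p = 0.0327, limma), and was not past the threshold with pravastatin (adjusted p = 0.18). Fabp4, Fabp7, Cd36 and Slc27a4 did not pass this test with either drug, with adjusted p from 0.137 to 0.836. With median centring in place of loess, no member differed between slides with SQ1 and 2 did with pravastatin. With SQ1, the difference of Fabp1 was not called with array weights (-0.83, adjusted p = 0.0554, limma), nor that of Slc27a1 on Agilent's processed signals (-0.15, adjusted p = 0.144).

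The untreated level of these members also differed between the sets of cultures. On the SQ1 arrays the control level of Fabp1 was 14.22 ± 0.15 (SD, n = 4) on slide 1 and 13.14 ± 0.53 on slide 2, without overlap, while the treated level was 14.68 ± 0.55 and 14.59 ± 0.68. On the pravastatin arrays its control level was 14.25 ± 0.22 on slide 3 and 13.25 ± 0.58 on slide 4, and its treated level 10.04 ± 0.15 and 10.41 ± 0.06. Neither the control nor the treated levels overlapped between these slides, and the treated level was the higher on slide 4. In Fabp1 the control levels of the first slides thus lay about 1 log2 unit above those of the second, and the treated levels much closer together. Slc27a2 had the same arrangement: its control level was 16.31 ± 0.21 and 15.39 ± 0.43 on slides 1 and 2, against treated levels of 15.67 ± 0.29 and 15.65 ± 0.21. On slides 3 and 4 its control level was 16.50 ± 0.21 and 15.46 ± 0.43, against treated levels of 12.79 ± 0.13 and 12.91 ± 0.20. The Fabp5 control level was the lower on the first slide of each drug, at 13.00 ± 0.36 against 13.61 ± 0.20 with SQ1 and 13.23 ± 0.34 against 13.83 ± 0.27 with pravastatin. Cd36 also had a higher control level on the first slides (14.32 ± 0.09 against 13.87 ± 0.23, and 14.36 ± 0.14 against 13.89 ± 0.26). Its treated level followed, at 14.68 ± 0.19 against 14.49 ± 0.22 with SQ1 and 12.70 ± 0.17 against 12.48 ± 0.43 with pravastatin. These level differences were noticed in the data and were not tested.

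**Figure D2:**
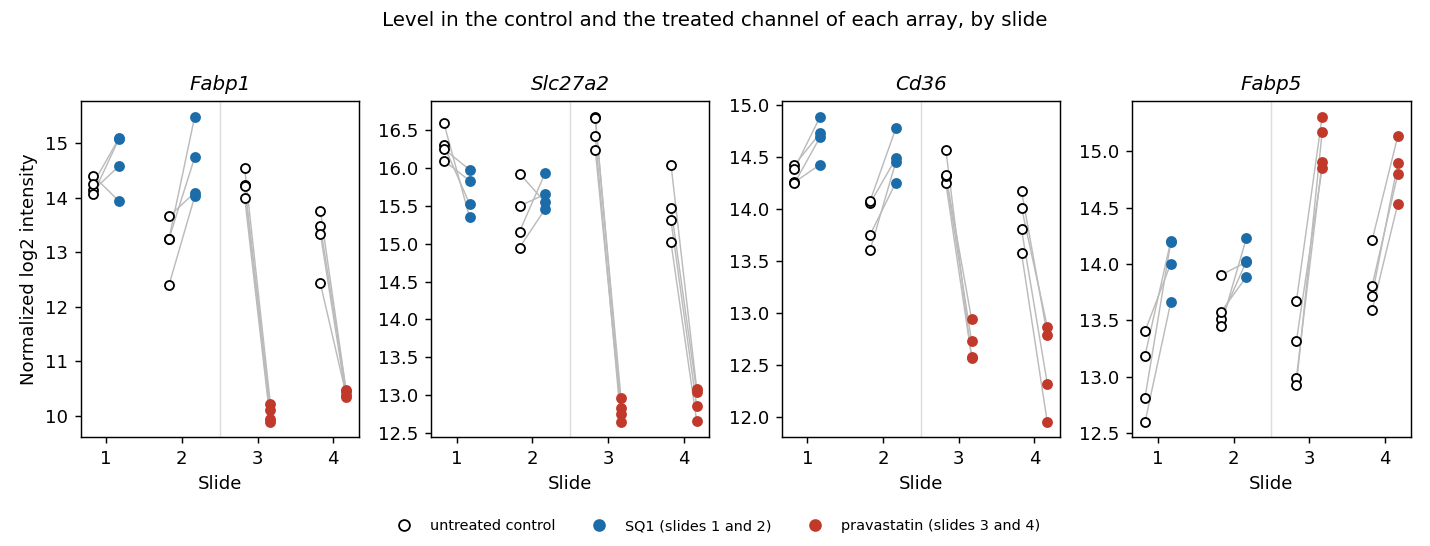
Normalized log2 intensity of Fabp1, Slc27a2, Cd36 and Fabp5 in the control channel (open circles) and the treated channel (filled circles) of each array, by slide; lines join the 2 channels of an array, and each panel has its own axis. Control levels of Fabp1, Slc27a2 and Cd36 are higher on slides 1 and 3 than on slides 2 and 4, those of Fabp5 tend to be lower, and pravastatin levels of the first 3 genes lie below every control.

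The genes whose 16 ratios were most like those of Fabp1 were Inhbc (Pearson r = 0.996), Gm4952, Hadha, Chpt1 and Abcb11 (r = 0.994), among 14967 genes with all ratios. Hadha is a subunit of the mitochondrial trifunctional protein of fatty acid oxidation, and Abcb11 the bile salt export pump. A Pearson correlation is unchanged when all ratios of a gene shift together. The sizes of these genes' ratios differed, and with SQ1 their signs as well. The log2 ratio was 0.26 with SQ1 and -0.63 with pravastatin for Hadha, and -0.58 and -2.85 for Abcb11. In the same order it was -0.10 and -1.69 for Inhbc, -0.53 and -4.26 for Gm4952, and 0.01 and -1.30 for Chpt1. For Cd36 the most like were Acadl (r = 0.993), the long-chain acyl-CoA dehydrogenase, then Fmo5, Igfbp4, Slc16a12 and Sat2 (r = 0.99). Acadl had log2 ratios of 0.44 and -0.33. Those of Fmo5 were -0.01 and -2.78, and those of Igfbp4 0.27 and -0.89. Slc16a12 had ratios of 0.68 and -1.47, and Sat2 of -0.06 and -1.17. These correlations describe arrays that probably share control cultures and fall into 2 drug groups, and they carry no p-value.

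Most of the other fatty acid binding and cytosolic lipid-binding genes were not tested: 8 of 12, Fabp3 and Fabp6 among them, did not pass the filter on signal and number of ratios. Of the 4 tested, 1 rose and 1 fell with SQ1, and 3 fell with pravastatin. Scp2, the sterol carrier protein, fell 4.03-fold with pravastatin (log2 ratio -2.01, adjusted p = 1.32e-10, limma). The SQ1 fall, that of Scp2 at -0.30, was not called without SQ1 replicate 1, 2, 3, 5 or 6 or without pravastatin replicate 1, 2, 3 or 6. Dbi, the acyl-CoA binding protein, is named after its values were seen: it rose by 0.21 with SQ1 and fell by 0.80 with pravastatin. The rise was not called in 4 of 33 alternatives, within slide 1 (0.07) among them.

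Among the other transport proteins and acyl-CoA synthetases, 10 of 12 were tested. With SQ1, 1 rose, Acsl4, an enzyme that prefers arachidonate (log2 ratio 0.47, adjusted p = 3.48e-05, limma), and none fell; the list median was -0.01. With pravastatin, 1 rose and 7 fell, with a list median of -0.84 beside -0.01 over all genes tested. The largest fall was that of Acsm1, a medium-chain synthetase of liver mitochondria, at -2.92 (adjusted p = 1.08e-09, limma), and Acsbg1 rose by 0.75 (adjusted p = 4.47e-08). The size of the Acsbg1 rise depended on the processing, with log2 ratios from 0.63 to 1.70 over 32 alternatives. Of 12 partners of fatty acid uptake, lipases and lipoprotein receptors included, 1 rose and 6 fell with SQ1, and 2 rose and 10 fell with pravastatin. The rises with SQ1 were 2 without SQ1 replicate 4 or 6 or pravastatin replicate 7. Vldlr, the VLDL receptor, had the largest fall with SQ1 (-1.05, adjusted p = 0.000256, limma). With pravastatin, lipoprotein lipase (Lpl) fell by 1.22 on the log2 scale (adjusted p = 3.44e-10, limma), and Cavin1, a coat protein of caveolae, rose by 0.36 (adjusted p = 2.76e-05).

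Genes of fatty acid oxidation under PPARalpha were measured beside the uptake genes. Of 24 such genes, 15 rose and 1 fell with SQ1, with a list median of 0.27, and none rose and 23 fell with pravastatin, with a median of -0.68. Over all genes tested, 15.8% rose and 16.5% fell with SQ1, and 30.9% rose and 35.8% fell with pravastatin. This list and the next were chosen with earlier results of these data known. Their counts, and the p-values of genes named from them, are therefore not independent evidence. The peroxisomal bifunctional enzyme Ehhadh had the largest rise with SQ1 (0.80, adjusted p = 3.48e-05, limma). The 1 fall with SQ1 was not called without SQ1 replicate 1, 2, 3, 5 or 6. Of 22 other PPARalpha-responsive genes, 18 rose and 3 fell with SQ1 (median 0.62), and 4 rose and 15 fell with pravastatin (median -0.81). The 3 falls with SQ1 became 1 without SQ1 replicate 1, 2, 3 or 6. The thioesterase Acot1 rose 6.24-fold with SQ1 (log2 ratio 2.64, adjusted p = 2.3e-12, limma). With pravastatin, the hormone Fgf21 fell by 2.32 (adjusted p = 2.39e-08) and the mitochondrial carrier Ucp2 rose by 0.37 (adjusted p = 3.27e-07).

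Of 25 nuclear receptors and liver transcription factors, 7 rose and 3 fell with SQ1 (median 0.06), and 5 rose and 17 fell with pravastatin (median -0.44). Over all genes tested, 15.8% rose and 16.5% fell with SQ1, and 30.9% rose and 35.8% fell with pravastatin. Srebf2, which drives sterol synthesis genes, had the largest rise with SQ1 (0.44, adjusted p = 2.99e-07, limma), and Srebf1, which drives fatty acid synthesis genes, the largest fall (-0.38, adjusted p = 0.0013). With pravastatin, Ppard rose by 1.07 (adjusted p = 1.06e-13, limma) and the bile acid receptor Nr1h4 fell 4.01-fold (adjusted p = 2.71e-09). The 3 falls with SQ1 became 1 without SQ1 replicate 1 or 5. Ppara itself, named here after its values were seen, had a log2 ratio of 0.26 with SQ1, not past the threshold, and of -0.86 with pravastatin (adjusted p = 0.0023, limma), which was not called within slide 4 (-0.24). Of 18 genes of triglyceride synthesis and secretion, 9 rose and 1 fell with SQ1, and 3 rose and 7 fell with pravastatin. The stearoyl-CoA desaturase genes parted: Scd2 rose by 1.82 with SQ1 and by 1.54 with pravastatin, while Scd1 fell by 0.59 and by 1.95 (largest adjusted p = 0.00464, limma). Without SQ1 replicate 4, 2 genes of the list fell with SQ1. The SQ1 fall of Scd1 was not called with median centring (-0.44) or within slide 2 (-0.32), and that of Srebf1 was not called with median centring (-0.27).

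**Figure D3:**
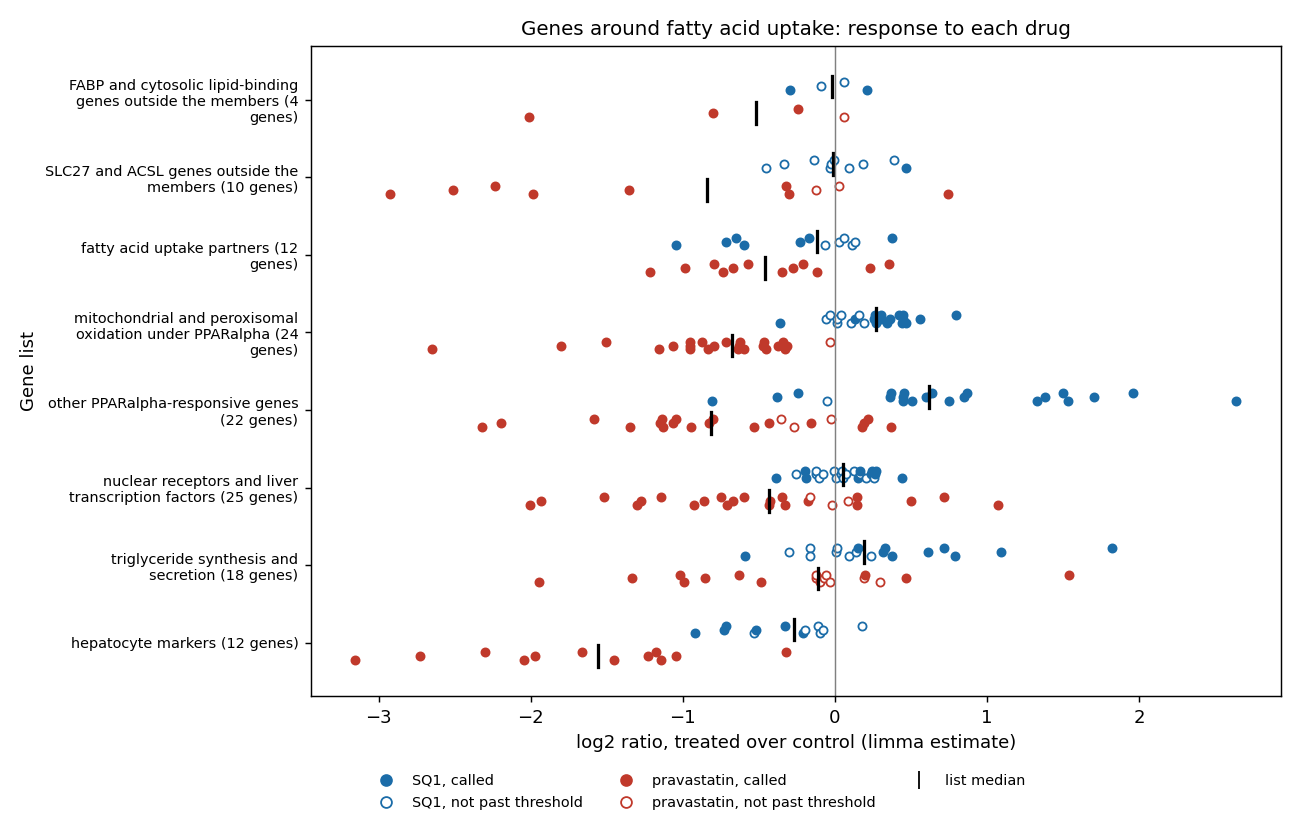
Limma log2 ratio of treated over control for each tested gene of 7 lists around fatty acid uptake and of the hepatocyte markers, with SQ1 (blue) and pravastatin (red); filled circles are called at an adjusted p of 0.05, open circles are not, and black bars are list medians. The oxidation and other PPARalpha-responsive lists have medians of 0.27 and 0.62 with SQ1 and of -0.68 and -0.81 with pravastatin, and the hepatocyte markers of -0.27 and -1.56.

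In the marker lists, the hepatocyte gene with the largest fall was Hpd with SQ1 (-0.92, adjusted p = 0.000225, limma) and Tdo2 with pravastatin (-3.15, adjusted p = 6.63e-09). Beside the counts here, 15.8% of all genes tested rose and 16.5% fell with SQ1, and 30.9% rose and 35.8% fell with pravastatin. Among Kupffer cell markers, Cd5l fell by 0.79 and Cd74 rose by 0.26 with SQ1, and Vsig4 fell by 1.08 with pravastatin. Of 12 stellate cell markers, 2 rose and 1 fell with SQ1, and 6 fell with pravastatin, Lum the most (-0.44). Lrat rose by 0.95 with SQ1, and Reln had a ratio of -0.11, a call lost without SQ1 replicate 3, 4, 5, 6 or 7, among others; with single arrays left out, the counts ran from 1 to 2 higher and from 0 to 2 lower. In the endothelial list, Lyve1 rose by 0.47 with SQ1, and with pravastatin Clec4g had a ratio of 0.27 that was not called without pravastatin replicate 1, 5 or 7, and Stab2 fell by 0.59. Of 8 cholangiocyte markers, none rose and 3 fell with SQ1, Spp1 the most (-0.65). Without SQ1 replicate 1 there were 5 falls, and without SQ1 replicate 7 there was 1 rise. With pravastatin, 1 rose, Epcam (0.34), and 5 fell, Prom1 the most (-0.73). The size of the Epcam rise depended on the processing, with log2 ratios from 0.17 to 0.98 over 32 alternatives. Of the 3 adipocyte markers tested, none was called with SQ1; with pravastatin Cidea rose by 0.19, and Pck1, which hepatocytes express for gluconeogenesis, fell by 3.10. Adrb3, at -0.22, was not called without pravastatin replicate 1, 3, 5, 6 or 7.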

How the data were processed

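The deposited scanner files give, per the file headers, the median intensity of each spot and of its local background in 2 channels, and a log10 ratio from Agilent Feature Extraction 11.0.1.1. The deposited series table is on the log2 scale, follows that ratio turned to treated over control (r = 0.743 to 0.999 per array), and served as an alternative; its column medians were -0.07 to 0.14.

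Median intensities were processed in R 4.3.3 with limma 3.58.1: normexp with an offset of 50, loess within arrays, spots of a probe averaged. Of 39429 probes, 27234 were named by RefSeq accession. A probe was tested if well above background on at least 4 treated arrays of a drug or 8 control channels, with a ratio on at least 7 arrays per drug. The probe with the highest mean intensity stood for a gene. Ratios were fitted over 16 arrays, each drug signed by dye orientation, with a dye constant, leaving 13 residual degrees of freedom. Tests were two-sided. P-values measure spread between arrays. Levels were also scaled between arrays (Aquantile). The array was designed on an older genome build, so no probe coordinates are given.

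The members and gene lists were chosen with earlier results of these data known. Named from each list were the called genes with the largest rise and fall of the same sign on all 8 arrays (markers: the highest and lowest called); 2 genes that this rule names are not reported here. Same-numbered arrays of the drugs deviated together in 8 of 8 pairs (r = 0.22 to 0.72), and the deposited arrays number their controls alike. The pravastatin array most like an SQ1 array carried the same number for only 3 of 8 SQ1 arrays. Pairing by number is thus probable and was not established. On simulated data for SQ1 against control (15053 genes), 99 of 100 changes of 1.5-fold and 100 of 100 of 2-fold were recovered. The simulated noise was independent between arrays, and no pravastatin effect was set. The recovery therefore leaves out the correlation within blocks of the real arrays (0.27 for slide, 0.47 for replicate). The changed genes were drawn from all genes tested, whose median standard error was 0.04 with SQ1. Among the members it ran from 0.03 (Slc27a4) to 0.25 (Fabp1), so the recovery does not describe the noisier members. Alternatives covered signals, background, normalization, filters, probes, blocks, weights and each array left out.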

Additional observations from a re-analysis of the deposited data

Results flagged for a closer look

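The response of 9 of 18 member and drug combinations differed between the slides of the drug, by the limma test of the difference itself. Over all genes tested, the share that differed was 12.3% with SQ1 and 21.8% with pravastatin. With median centring, 0 members differed with SQ1 and 2 with pravastatin. The arrays of the drugs probably share control cultures, so the combinations of a member with each drug are not independent. As the ratio on the first slide minus that on the second, the differences with SQ1 were -0.99 for Fabp1, -0.75 for Fabp2, 0.58 for Fabp5, -0.18 for Slc27a1 and -0.91 for Slc27a2. With pravastatin they were -1.37 for Fabp1, -0.53 for Fabp2, 0.82 for Fabp5 and -1.15 for Slc27a2. With SQ1, Slc27a2 had a ratio below 0 on slide 1 and above it on slide 2. No array stood apart from the others of its drug in a member's ratio or level, over 54 groups of 8 values looked at.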

How the results depend on the processing

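Of 873 values of the 9 members under alternatives in the 3 comparisons, 850 stayed on their side of the threshold, 15 lost the call and 8 gained one. None that was called changed sign; values not past the threshold turned in places, such as Slc27a2 with SQ1 (-0.64 to 0.27), Slc27a1 with SQ1 (-0.04 to 0.14), Slc27a4 with SQ1 (-0.04 to 0.07) and with pravastatin (-0.01 to 0.15), and the Fabp7 difference (-0.11 to 0.03). The 873 values include alternatives that could not change a member's ratio. Scaling between arrays (Aquantile) leaves ratios as they are, and each member had 1 probe to average. Filters and the stricter threshold can change only a member's call. The 850 therefore overstate how far the ratios were tried. The cause of each change below was not tested. SQ1 called 2076 genes with median centring, 2545 with slide or 2236 with scan day entered as random blocks, 3117 at an adjusted p of 0.01, against 4865. The difference called 3696 with median centring, against 8004. Testing each probe by itself gave 7500, 16480 and 12584 calls for SQ1, pravastatin and the difference, over more features (25826). Members called lower with SQ1 were 0 with median centring, and 1 with slide or scan day as a block, within slide 2, or at 0.01. Members called higher with pravastatin were 2 on processed signals, on the series table and within slide 4. Members with a lower ratio under SQ1 than under pravastatin were 2 on processed signals and on the series table, and 0 with scan day as a block or at 0.01. Slide differences with median centring were called for 0 members with SQ1 and 2 with pravastatin. Leaving out single arrays gave 1 to 2 members lower with SQ1 and 1 to 2 higher with pravastatin.

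With the replicate block, the paired fit, 4726 genes were called with SQ1, 9867 with pravastatin and 9629 in the difference (9411 with a fixed block), and no call of a member changed. Of 2522 counts of the other lists under alternatives, 185 moved by over 1.5 times, and no called gene of these lists named here changed sign. Every member was well above background, and the number of arrays, 8 per drug, limits the precision.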
